A study of Caenorhabditis elegans with 20 samples.

Results

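The libraries described here set ribosome-bound messenger RNA of the nervous system against the RNA of the whole animal in the nematode Caenorhabditis elegans. In translating ribosome affinity purification (TRAP), tagged ribosomes of chosen cells are pulled out of a lysate of whole animals together with the messenger RNA on them, which is sequenced. The members were chosen by sample label: 2 neuronal TRAP libraries, made from the immunoprecipitated RNA, and 2 neuronal input libraries, made from polyadenylated RNA of whole animals, which are 4 of the 20 libraries of a series on 5 strains. All 4 came from strain JAC126, so that the inputs carry the same transgene as the TRAP samples, and no neuron-free or untagged control was among them. The animals were bleach-synchronised L4 larvae grown at 22 °C on Escherichia coli and collected 46 to 48 h past release from L1 arrest. The promoter that drives the tag, and how evenly it is active over neuron types, are not given in the sources used here. TRAP and input are paired by replicate number, and a pair of values below is always replicate 1 and then replicate 2. The unit is RPKM, a read count scaled by gene length and library size. A gene enters a replicate's table when TRAP or input reaches an RPKM of 1. Of 16483 genes in either replicate 13686 are listed in both. Where both inputs are under 1 RPKM, such a gene is listed only through TRAP, so this rule sets its direction.

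Neurons release fast transmitters from small synaptic vesicles and peptides from dense-core vesicles, and both depend on a shared set of fusion and transport proteins. The nematode nervous system is built of many small classes, each recognised by its transmitter enzymes, receptors and the transcription factors that keep its identity. In this animal, cilia are found on sensory neurons, so the genes that build cilia mark that part of the nervous system.

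The 4 libraries differ in depth and make-up. Reads recovered from the deposited values numbered 1.36e+08 and 5.29e+07 in TRAP against 4.46e+06 and 3.15e+07 in input, with a median per listed gene of 1940 and 763 reads in TRAP against 44 and 70 reads in input. Input replicate 1 is therefore the shallowest library and has 1072 listed genes at 0 reads, while TRAP replicates 1 and 2 have 64 and 23. Input replicate 2 stands apart in composition, since cytosolic ribosomal protein genes took 14.8% and 18.9% of reads in TRAP, and 21.3% in input replicate 1 but 52.7% in input replicate 2. Cuticle collagen genes took 1.62% and 0.550% of reads in TRAP against 6.78% and 0.721% in input.

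Most genes whose level differed were higher in TRAP. Of 13435 genes tested, those with a mean RPKM of at least 1, limma on log2(RPKM + 1) with replicate as a block called 2103 higher in TRAP (15.7%) and 93 lower (0.692%) at a Benjamini-Hochberg adjusted p of 0.05. The change of a gene is its mean difference of TRAP minus input on this log2 scale, where the added 1 shrinks the change of genes at low RPKM, and each ± is the standard error of that fit with n = 2 and 2. The median change over all genes was 0.81, with 0.00 in replicate 1 and 1.58 in replicate 2. Rescaling the libraries by relative log expression set that median to -0.09, and the same fit then called 3279 genes higher (24.4%) and 2048 lower (15.2%), so changes smaller than the shift between these scalings have no settled direction. The authors' deposited ratio per replicate, a separate column of the same files, was a median of 1.10 times the ratio of the RPKM values in replicate 1 and 0.276 times in replicate 2, so the deposited columns themselves do not share 1 scaling. The share of called genes that were higher was 95.8% as deposited and 61.6% after rescaling. List counts below stand against the 15.7% called higher and 0.692% called lower of all genes. Rescaled without the replicate block, the fit called 1372 genes higher and 78 lower. Unlike the rescaled fit with the block, it let each gene's own spread enter in part, so the drop cannot be credited to the block alone. Both TRAP libraries lay above both inputs in 5771 genes (43%) and below both in 956 genes (7.12%). The counts of higher genes were 1141 without TRAP replicate 1, 1360 without TRAP replicate 2, 3849 without input replicate 1 and 414 without input replicate 2, and those of lower genes were 11, 8, 132 and 16. These fits, and those without 1 library given below for each list, have no replicate block. The deposited headers name 2 biological replicates, but the labels do not say that these were separate cultures. A p-value here therefore reflects only how far these libraries scatter. Because limma pooled the spread completely in the main fit, disagreement between a gene's own replicates does not enter its p or standard error there.

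The 4 genes used to mark neurons in general were far higher in TRAP. The t-SNARE gene ric-4, whose product drives vesicle fusion, had 1638.5 and 1468.5 RPKM in TRAP versus 23.9 and 3.52 in input, a change of 7.19 ± 0.91. The vesicle GTPase gene rab-3 had 688 and 723 RPKM in TRAP versus 10.8 and 2.51 in input. The complexin gene cpx-1, a clamp on vesicle fusion, had 964 and 1059 RPKM in TRAP versus 50.8 and 5.30 in input. In all 3 both TRAP libraries were high and near each other, both inputs were low, and input replicate 2 was the lower of the inputs. The 7B2 chaperone gene sbt-1, which serves peptide processing, had 5712 and 1081 RPKM in TRAP versus 59.6 and 13.2 in input, so that its TRAP libraries differed between themselves more than those of the other markers. All 4 were called by limma (adjusted p 1.54e-12 to 5.06e-08), and 3 of the 4 were still called without input replicate 2.

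**Figure D1:**
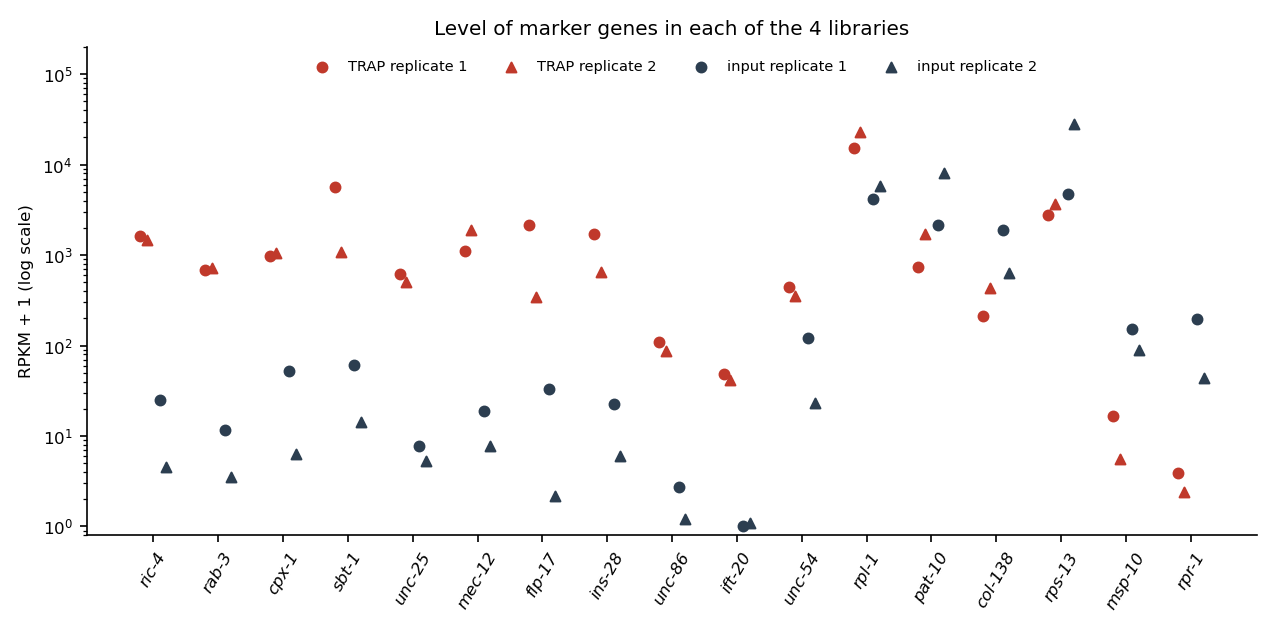
RPKM + 1 on a log scale for 17 genes in the 2 TRAP libraries (red) and the 2 input libraries (dark), circles for replicate 1 and triangles for replicate 2. Neuronal genes from ric-4 to ift-20 have both TRAP points above both inputs, while pat-10, rps-13, msp-10 and rpr-1 have both TRAP points below both inputs.

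The core machinery of the synapse was higher in TRAP nearly throughout. Of 13 genes for vesicle fusion 11 were called higher, with a median change of 4.53, and of 12 for vesicle membrane and recycling 10 were, with a median of 3.71, against 15.7% of all genes and a median of 0.81. The Rab27 gene aex-6 had 187 and 268 RPKM in TRAP versus 6.44 and 2.77 in input, and the synapsin gene snn-1 had 113 and 176 RPKM in TRAP versus 1.502 and 1.58 in input. In both genes the groups were far apart and the replicates much closer. The syntaxin gene unc-64, a partner of RIC-4 in fusion, had 33.5 and 44.9 RPKM in TRAP versus 20.7 and 4.53 in input, and was not called at a change of 1.86 ± 1.23. The calcium-dependent activator unc-31, needed for dense-core vesicle release, had only 5.41 and 10.1 RPKM in TRAP versus 1.58 and 0.0308 in input and was not called either (2.37 ± 1.00). The clathrin adaptor gene unc-101, at 1.54 ± 1.26, and the trafficking gene vps-45, at 2.23 ± 1.32, were the uncalled members of the recycling list. Of 12 active zone and presynaptic assembly genes 7 were called higher, among them the kinase gene sad-1 with 48.96 and 85.99 RPKM in TRAP versus 1.25 and 0.156 in input, and the neurexin gene nrx-1 with 56.1 and 21.3 RPKM in TRAP versus 1.01 and 0.0327 in input. The fusion list had 4, 3, 13 and 5 members called without TRAP replicate 1, TRAP replicate 2, input replicate 1 and input replicate 2, the recycling list 0, 0, 12 and 2, and the active zone list 1, 3, 11 and 2.

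Genes for the axon and its transport followed. In a list of 20 genes 14 were called higher, with a median change of 3.85 and no member under 2.20. Tubulins of the touch neurons led it, with mec-12 at 1122 and 1918 RPKM in TRAP versus 17.9 and 6.67 in input (6.93 ± 0.91), and mec-7 at 610 and 1028 RPKM in TRAP versus 11.4 and 4.48 in input (6.59 ± 0.99). The tubulin gene tbb-4 had 139.5 and 227 RPKM in TRAP versus 2.73 and 1.63 in input. In these 3 genes TRAP replicate 2 was the higher of the TRAP libraries. The synaptic vesicle kinesin gene unc-104 had 99.6 and 87.1 RPKM in TRAP versus 2.67 and 0.114 in input (5.54 ± 1.30). Without TRAP replicate 1, TRAP replicate 2 or input replicate 2 the list had 2, 3 and 8 called members, and without input replicate 1 it had 19.

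Ciliary genes rose as a block. Of 43 genes for the cilium and intraflagellar transport 39 were called higher, with a median change of 3.62. All 43 had both TRAP libraries above both inputs, against 43% of all genes. A gene with both inputs under 1 RPKM is listed only through TRAP, so for such genes the listing rule sets this direction. The transport particle gene ift-20 had 47.2 and 40.2 RPKM in TRAP versus 0 and 0.0820 in input. The gene ifta-2 had 42.9 and 46.9 RPKM in TRAP versus 0.559 and 0.0791 in input, and tub-1, the tubby homologue, had 33.2 and 42.4 RPKM in TRAP versus 0.115 and 0.0651 in input. The TRAP libraries were close to each other and the input was near 0 in each of these. The 4 members not called were osm-1 (2.75 ± 1.15), the kinesin gene klp-20 (3.43 ± 1.33), mksr-2 (2.99 ± 1.26) and dyf-7 (1.37 ± 1.03), which acts in the anchoring of dendrite tips during development. The count was 23, 31, 42 and 7 after removal of TRAP replicate 1, TRAP replicate 2, input replicate 1 and input replicate 2.

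Peptide genes held some of the highest levels among called genes. All 30 FMRFamide-like peptide genes tested, of 31 listed, were called higher, with a median change of 5.39 and a smallest of 3.33. The gene flp-17 had 2154 and 341 RPKM in TRAP versus 32.1 and 1.18 in input (6.66 ± 0.98), and flp-19 had 2054 and 575 RPKM in TRAP versus 33.5 and 4.45 in input. The gene flp-1 was among the most abundant called transcripts, at 4666 and 955 RPKM in TRAP versus 79.8 and 14.9 in input. The groups were far apart in all 3, and TRAP replicate 1 was several times above TRAP replicate 2. Without input replicate 2 the count of called flp genes was 6, while it came to 12, 28 and 30 with TRAP replicate 1, TRAP replicate 2 or input replicate 1 left out.

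The neuropeptide-like genes, in contrast, divided into separate sets. Of 40 tested 25 were called higher, among them nlp-41 with 1467 and 656 RPKM in TRAP versus 13.4 and 8.02 in input (6.43 ± 0.95) and nlp-47 with 1956 and 402 RPKM in TRAP versus 27.1 and 3.29 in input. Of the 15 others, named here after their values were seen, nlp-16, nlp-40 and nlp-2 had changes of 1.90, 1.85 and 1.73. The remaining 12, among them every gene from nlp-24 to nlp-31, had changes of -0.42 to -1.93. After rescaling 10 of the list were called lower with the replicate block, against 15.2% of all genes, and 1 without it. The gene nlp-29, known as an antimicrobial peptide gene of the epidermis, had 15.7 and 6.34 RPKM in TRAP versus 111 and 4.94 in input, so that its groups overlapped. The gene nlp-24 had 106 and 82.5 RPKM in TRAP versus 327 and 143 in input. The list as a whole had 11, 23, 27 and 6 members called higher without TRAP replicate 1, TRAP replicate 2, input replicate 1 and input replicate 2.

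Of 29 insulin-like peptide genes 21 were called higher, against 15.7% of all genes, with a median change of 4.36. The gene ins-14 had 325 and 132 RPKM in TRAP versus 1.27 and 1.53 in input (6.44 ± 1.22), and ins-26 had 669 and 159 RPKM in TRAP versus 6.02 and 1.11 in input. Both groups were far apart. Of the uncalled members, named after their values were seen, ins-7 had 13.6 and 5.18 RPKM in TRAP versus 21.9 and 3.54 in input, and ins-37 had a change of -1.36 ± 1.28. The counts were 3, 6, 21 and 8 without each library in the same order.

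Peptides are cut from precursors by dedicated enzymes, and 11 of 16 genes for that processing and for dense-core vesicles were called higher, with a median change of 3.88. The convertase gene egl-3 had 1414 and 84.7 RPKM in TRAP versus 21.9 and 0.372 in input (5.96 ± 1.10). The amidating enzyme genes pghm-1 and pgal-1 had changes of 6.17 ± 1.03 and 6.36 ± 0.91, with pgal-1 at 3576 and 392.4 RPKM in TRAP versus 57.1 and 2.58 in input. In egl-3 and pgal-1 the groups did not overlap, and TRAP replicate 2 was far below TRAP replicate 1. The list had 3, 7, 14 and 0 members called without TRAP replicate 1, TRAP replicate 2, input replicate 1 and input replicate 2.

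Receptors were lower in level than peptides, and most were called higher. Of 81 neuropeptide receptor genes tested 66 were called higher, with a median change of 2.98. Both TRAP libraries lay above both inputs in 80 of the 81, against 43% of all genes. The listing rule sets that direction where both inputs are under 1 RPKM. The receptor gene frpr-13 had 76.7 and 45.1 RPKM in TRAP versus 1.59 and 0.339 in input (5.005 ± 1.33), and npr-26 had 42.4 and 14.8 RPKM in TRAP versus 0.158 and 0 in input. Of 21 receptors for biogenic amines and muscarinic acetylcholine 20 were called higher, led by gar-2 at 81.9 and 28.5 RPKM in TRAP versus 1.33 and 0.407 in input. The muscarinic receptor gene gar-3 was not called, at 3.005 ± 1.18. Input was near 0 in all of these, and TRAP replicate 1 was the higher. The counts of called peptide receptors were 51, 49, 36 and 1 after removal of TRAP replicate 1, TRAP replicate 2, input replicate 1 and input replicate 2, and those of the amine receptors 12, 10, 18 and 0.

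Ion channels and ligand-gated receptors were more mixed. Of 55 potassium channel genes 37 were called higher, against 15.7% of all genes, with a median change of 3.20. Among them was kcnl-4, with 79.4 and 25.03 RPKM in TRAP versus 1.38 and 0 in input. Of 10 calcium and sodium leak channel genes 7 were called, led by nlf-1, a chaperone of the sodium leak channel, with 103.95 and 88.2 RPKM in TRAP versus 2.04 and 0.308 in input. The muscle and neuron calcium channel gene egl-19 was not called, at 7.54 and 6.92 RPKM in TRAP versus 4.82 and 0.0303 in input. Of 22 acetylcholine receptor subunit genes 13 were called higher, with acr-12 at 30.8 and 7.602 RPKM in TRAP versus 0.234 and 0 in input (3.90 ± 1.10). The potassium list had 19, 17, 30 and 0 members called without TRAP replicate 1, TRAP replicate 2, input replicate 1 and input replicate 2, the calcium list 3, 4, 9 and 1, and the acetylcholine receptor list 11, 14, 4 and 0.

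Chemoreceptors of sensory neurons were read at the edge of detection. Of 371 chemoreceptor genes listed in either replicate 97 are listed in both, 71 were tested and 53 were called higher, with a median change of 1.93. The gene srab-12 led them, with 36.8 and 10.9 RPKM in TRAP versus 0 and 0.0307 in input, where the groups were far apart. Of 268 listed in replicate 1 alone, and so in no test, 260 had TRAP above input and 198 had no input read, with a median of 1.61 RPKM in TRAP against 0 RPKM in input. A gene with no input read can be listed only through TRAP, so its direction is set by the listing rule, and of all 2461 genes listed in replicate 1 alone 957 had TRAP above input. The count of called chemoreceptors was 63, 62, 8 and 0 after removal of TRAP replicate 1, TRAP replicate 2, input replicate 1 and input replicate 2. Guanylate cyclases, which serve smell, taste, temperature and gas sensing, were called higher in 13 of 17 cases, and ionotropic glutamate receptors in 6 of 8. The kainate-type receptor gene glr-5 had 71.02 and 5.50 RPKM in TRAP versus 0.901 and 0.0294 in input. The cyclase list had 11, 13, 7 and 1 called members after removal of TRAP replicate 1, TRAP replicate 2, input replicate 1 and input replicate 2, and the glutamate receptor list 6, 6, 2 and 0.

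Innexins, the gap junction subunits of invertebrates, divided by gene. Of 18 tested 4 were called higher, against 15.7% of all genes, and the median change of 0.46 turned to -0.32 after rescaling. The neuronal innexin gene unc-7 had 28.2 and 15.6 RPKM in TRAP versus 0 and 0.0814 in input, and unc-9 had 84.2 and 13.8 RPKM in TRAP versus 3.72 and 0.0620 in input. The other members called were che-7 (3.55 ± 0.99) and inx-19 (2.57 ± 0.93, named after its values were seen). The other 14 ranged from -0.84 to 3.16. After rescaling 4 innexins were called lower with the replicate block, against 15.2% of all genes, and 0 without it. The count was 3 without either TRAP library, 7 without input replicate 1 and 0 without input replicate 2.

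Transcription factors that keep neuron identity were low in level and mostly steady between the TRAP libraries. Of 41 tested 34 were called higher, with a median change of 3.91. All 41 had both TRAP libraries above both inputs, against 43% of all genes, a direction set by the listing rule where both inputs are under 1 RPKM. The homeobox gene unc-42 had 83.1 and 83.9 RPKM in TRAP versus 1.02 and 0.108 in input (5.82 ± 1.33), and the POU gene unc-86 had 109 and 86.2 RPKM in TRAP versus 1.75 and 0.198 in input (5.76 ± 1.30). The ETS gene ast-1 had 53.8 and 43.8 RPKM in TRAP versus 0.636 and 0 in input. The groups were far apart in each, and the counts of called factors were 17, 22, 38 and 13 without each library. Among 21 splicing and RNA-binding regulators 5 were called higher, against 15.7% of all genes, although their median change was 2.68. The gene ptb-1 had 62.9 and 92.9 RPKM in TRAP versus 5.45 and 2.10 in input. This list had 2 members called without either TRAP library, 16 without input replicate 1 and 0 without input replicate 2. Of 36 genes for G proteins and their regulators 27 were called, led by rgs-1 with 77.4 and 77.5 RPKM in TRAP versus 0.605 and 0.300 in input (5.76 ± 1.33), and the counts without each library were 11, 13, 31 and 12.

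Of 39 guidance and adhesion genes 14 were called higher, against 15.7% of all genes, with a median change of 2.86. The immunoglobulin domain gene zig-2 had 457 and 46.1 RPKM in TRAP versus 3.06 and 0.0667 in input (6.14 ± 1.26), and the calsyntenin gene casy-1 had 519 and 74.1 RPKM in TRAP versus 11.1 and 0.629 in input. Both had TRAP libraries above both inputs, with TRAP replicate 1 far above TRAP replicate 2. Of all genes the rescaled fit called 24.4% higher and 15.2% lower. The rescaled fit called 33 members higher and 1 lower, and 6 higher without the replicate block, and the counts higher were 7, 8, 21 and 0 after removal of TRAP replicate 1, TRAP replicate 2, input replicate 1 and input replicate 2.

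**Figure D2:**
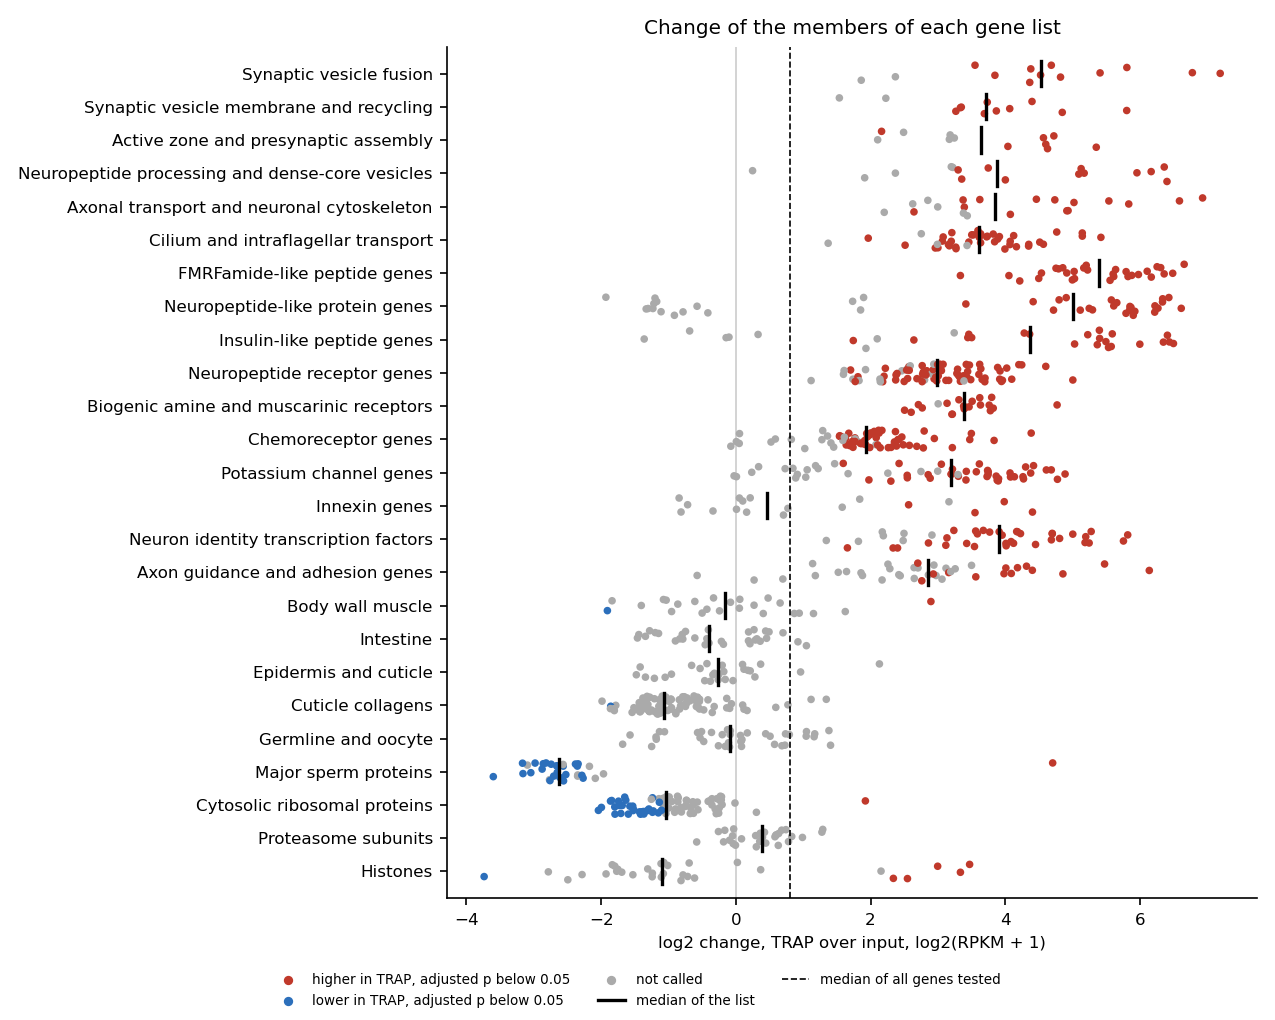
Log2 change of TRAP over input for each tested member of 25 gene lists, coloured by the limma call, with the median of each list (bar) and of all 13435 genes (dashed line at 0.81). Neuronal lists lie mostly right of the dashed line, neuropeptide-like genes and innexins spread to both sides of 0, and the major sperm and ribosomal protein lists lie left of 0 except for msp-52, rpl-1 and rpl-24.2.

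Neuron classes were compared through 29 lists of marker genes. In bulk samples, fewer cells of a type and less RNA per cell cannot be told apart, and many markers are made by more than 1 class. In all class lists, markers with both inputs under 1 RPKM are listed only through TRAP, so the listing rule sets their direction. Among these are unc-3, vab-7, mec-3 and F49H12.4. Acetylcholine neurons were marked by 4 of 4 genes called higher. The synthetic enzyme gene cha-1 had 60.8 and 56.5 RPKM in TRAP versus 1.63 and 0.129 in input, and unc-17, which encodes the vesicular transporter, had 155 and 15.2 RPKM in TRAP versus 2.15 and 0.0676 in input. The identity factor unc-3 had 12.44 and 20.4 RPKM in TRAP versus 0.110 and 0.0779 in input. Of 12 markers of excitatory motor neurons of the ventral cord 11 were called, and the exception was the growth factor gene unc-129, at 62.2 and 4.68 RPKM in TRAP versus 3.52 and 0.104 in input. The even-skipped homologue vab-7 of posterior motor neurons had 29.6 and 29.3 RPKM in TRAP versus 0.274 and 0.0776 in input. Acetylcholine neurons had 1, 1, 3 and 1 markers called without TRAP replicate 1, TRAP replicate 2, input replicate 1 and input replicate 2, and the ventral cord list 6, 8, 9 and 3.

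GABA neurons had 8 of 10 markers called higher. The glutamate decarboxylase gene unc-25 had 612 and 503 RPKM in TRAP versus 6.78 and 4.34 in input (6.43 ± 1.05), and the immunoglobulin domain gene oig-1 had 316 and 151 RPKM in TRAP versus 4.49 and 2.76 in input. The list had 3, 5, 7 and 4 members called without TRAP replicate 1, TRAP replicate 2, input replicate 1 and input replicate 2. The GABA uptake transporter gene snf-11, which muscle also expresses, had 31.7 and 2.45 RPKM in TRAP versus 5.29 and 0.300 in input and was not called, and neither was lim-6 (2.50 ± 1.34). The vesicular glutamate transporter gene eat-4, the marker of glutamate neurons, had 91.5 and 7.05 RPKM in TRAP versus 2.89 and 0.117 in input and was called (3.71 ± 1.32), but in none of the fits that left out a library.

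Monoamine classes were marked in part. Dopamine neurons had 7 of 9 tested markers called, with the tyrosine hydroxylase gene cat-2 at 30.8 and 33.8 RPKM in TRAP versus 0.673 and 0.0381 in input (4.66 ± 1.29). The dopamine transporter gene dat-1 was not called, at 50.8 and 4.01 RPKM in TRAP versus 2.34 and 0.0301 in input, and neither was the decarboxylase gene bas-1, at 20.03 and 26.1 RPKM in TRAP versus 9.63 and 9.84 in input. The serotonin marker tph-1, tryptophan hydroxylase, was low but called, with 3.57 and 4.96 RPKM in TRAP versus 0.247 and 0.140 in input, and was not called without either input library. The cofactor gene cat-4, which the epidermis also uses, had 44.4 and 36.2 RPKM in TRAP versus 57.8 and 18.4 in input, so its groups overlapped. None of 3 octopamine and tyramine markers was called. The decarboxylase gene tdc-1 had 41.9 and 44.4 RPKM in TRAP versus 25.5 and 2.36 in input, with both TRAP libraries above both inputs, while the hydroxylase gene tbh-1 had 17.5 and 1.503 RPKM in TRAP versus 11.9 and 0.0316 in input, which overlap. The betaine transporter gene snf-3 had 16.5 and 2.37 RPKM in TRAP versus 16.5 and 0.148 in input and was not called. Without TRAP replicate 1, TRAP replicate 2, input replicate 1 and input replicate 2 the dopamine list had 2, 2, 4 and 2 members called.

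Mechanosensory and nociceptive neurons had all or nearly all of their markers called in the main fit, but fewer in other fits. Of 12 touch neuron genes 11 were called higher, and mec-17, the tubulin acetyltransferase gene, had 1072 and 1626 RPKM in TRAP versus 27.1 and 31.9 in input (5.44 ± 0.84). The touch identity factor mec-3 had 35.05 and 55.6 RPKM in TRAP versus 0.378 and 0.0268 in input, and mec-6, a channel accessory gene, was not called at 2.48 ± 0.94. All 5 markers of the PVD and FLP nociceptors were called, with F49H12.4 at 48.3 and 22.4 RPKM in TRAP versus 0.311 and 0.132 in input. Without TRAP replicate 1, TRAP replicate 2, input replicate 1 and input replicate 2 the touch list had 8, 7, 8 and 5 members called, and the nociceptor list 1, 0, 2 and 0.

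Sensory classes of the head were represented by most of their tested markers at low levels. Tested markers called higher were 4 of 5 for AWA, 3 of 4 for AWC, 3 of 4 for ASE, 7 of 7 for AFD, 4 of 5 for ASJ, 3 of 3 for ASH, 5 of 5 for URX with AQR and PQR, and 5 of 5 for BAG neurons. Named markers of these classes numbered 5, 7, 13, 8, 6, 5, 6 and 5 in that order, and the rest were not tested. AWB, ASI and ASK had 1 tested marker each, of 3, 4 and 7 named, and it was called higher. The ASI marker daf-7 was called in no fit that left out a library, nor after rescaling without the replicate block. The AWB marker lim-4 and the ASK marker nlp-14 were each not called in some fits that left out a library. A marker with input near 0 enters the test only through its TRAP level, so the filter favours higher calls. The olfactory G protein gene odr-3 had 40.6 and 42.1 RPKM in TRAP versus 0.631 and 0.0596 in input, and the receptor gene odr-10 of AWA had 28.6 and 2.48 RPKM in TRAP versus 1.62 and 0.144 in input and was not called. Thermosensory guanylate cyclase gcy-8 of AFD had 10.7 and 1.15 RPKM in TRAP versus 0 and 0 in input. The oxygen-sensing cyclase gene gcy-32 had 20.3 and 21.1 RPKM in TRAP versus 0 and 0.0584 in input (4.40 ± 1.15), and gcy-33 of BAG had 18.4 and 14.03 RPKM in TRAP versus 0.396 and 0.0674 in input. The insulin gene daf-28 of ASI and ASJ had 2272 and 786 RPKM in TRAP versus 33.9 and 7.50 in input, and the TGF-beta gene daf-7 of ASI had 156.2 and 13.5 RPKM in TRAP versus 2.18 and 0.328 in input. The only tested ADL marker, ver-2, had 2.47 and 1.69 RPKM in TRAP versus 3.54 and 2.06 in input and was not called. Without input replicate 2 no marker of AWA, ASE, AFD or BAG neurons was called, 1 of URX with AQR and PQR, and 2 each of AWC, ASJ and ASH. Counts also dropped to 1 for AWC without either TRAP library, to 2 for ASJ without TRAP replicate 1, to 2 for AFD without input replicate 1, and to 3 for BAG without input replicate 1 and for URX with AQR and PQR without TRAP replicate 1.

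Interneurons and single-class peptide neurons completed the survey. Of 10 command interneuron markers 8 were called, with the glutamate receptor gene glr-1 at 18.6 and 3.97 RPKM in TRAP versus 0.761 and 0 in input, while cfi-1 (2.48 ± 0.98) and rig-3 (3.5004 ± 1.33) were not. Of 5 AIY markers 4 were called, with the LIM homeobox gene ttx-3 at 8.89 and 8.99 RPKM in TRAP versus 0 and 0.111 in input. The RIA marker glr-6 was not called, at 5.91 and 5.198 RPKM in TRAP versus 0.964 and 0.0621 in input, though both TRAP libraries lay above both inputs. All 10 peptide genes used for single classes were called, from 3.33 to 6.61. Of 5 tested pharyngeal neuron markers 3 were called, with the serotonin receptor gene ser-7 at 23.1 and 8.92 RPKM in TRAP versus 0.128 and 0.0909 in input. Without input replicate 2 the command, AIY, single-class peptide and pharyngeal lists had 1, 0, 1 and 2 members called, and without TRAP replicate 1 they had 6, 3, 6 and 3. Without input replicate 1 the command list had 4.

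**Figure D3:**
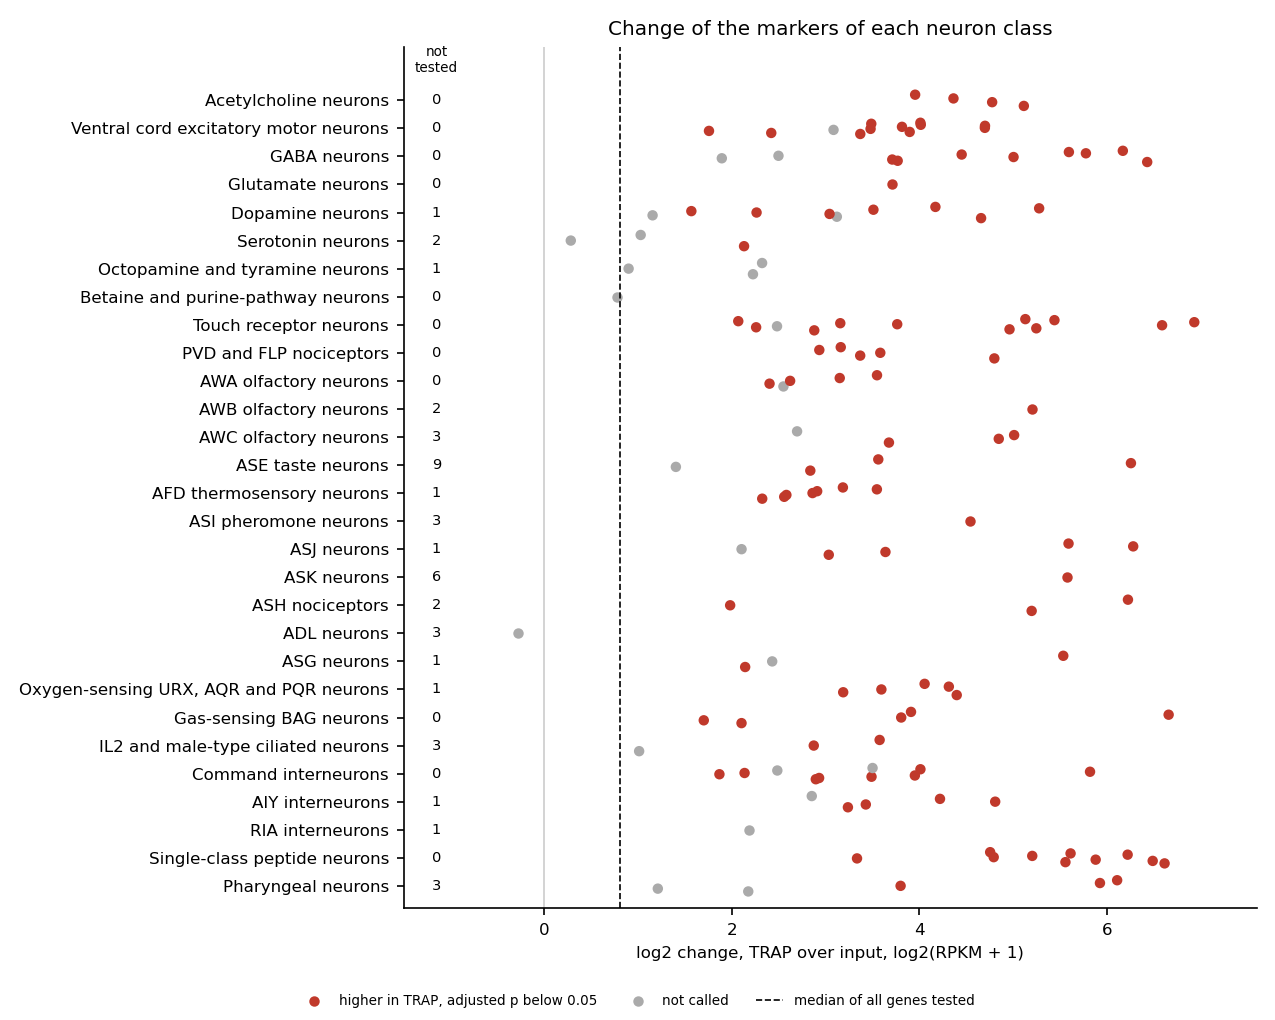
Log2 change of TRAP over input for each tested marker of 29 neuron classes, red where limma called it higher and grey where it did not, with the number of markers not tested at the left. No marker was called lower, and ver-2 of ADL neurons was the only one under 0.

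Genes that the files give only by a sequence name stood among the largest increases. After ric-4, the largest changes by the naming rule were those of C33A12.4 (7.14 ± 0.97), Y44A6D.2 (7.10 ± 0.78), H05L03.3 (6.95 ± 0.75) and mec-12. RefSeq names H05L03.3 nlp-49, a neuropeptide-like gene outside the list used above because the deposited symbol is the older one, and it had 8245 and 1757 RPKM in TRAP versus 85.0 and 10 in input. The gene R102.2 had the highest TRAP mean among called genes after rpl-1, with 7450 and 9617 RPKM in TRAP versus 110 and 317 in input (5.49 ± 0.57). K02F2.5 had 961 and 401 RPKM in TRAP versus 12.01 and 1.76 in input, and D2023.3 had 169 and 153 RPKM in TRAP versus 1.49 and 0.0423 in input. In each of these the lower TRAP library was many times above the higher input.

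Markers of other tissues stayed near or under the median of all genes. Of 24 body wall muscle genes 1 was called higher and 1 lower, with a median change of -0.16, and their summed level was 4225 and 8487 RPKM in TRAP versus 11251 and 15027 in input. The higher one was the body wall myosin gene unc-54, at 438 and 354 RPKM in TRAP versus 118.9 and 22.4 in input (2.90 ± 0.89), which was not called after rescaling, without either TRAP library or without input replicate 2. The lower one was the troponin C gene pat-10, at 739 and 1699 RPKM in TRAP versus 2166 and 8165 in input. Its groups did not overlap, and input replicate 2 was the highest, but it was called neither after rescaling nor without either TRAP library or input replicate 2. None of 31 intestine, 27 epidermis, 9 pharyngeal muscle and 39 germline genes was called in either direction by limma, with medians of -0.40, -0.26, -0.11 and -0.08, all of which lie further below 0 after rescaling, at -1.52, -1.22, -0.79 and -1.10. Of all genes the rescaled fit called 15.2% lower and 24.4% higher. It called 8 intestine, 8 epidermis, 2 pharyngeal muscle and 14 germline genes lower and 1 epidermis gene higher, but none of these without the replicate block. The intestine list summed to 6365 and 2718 RPKM in TRAP versus 13188 and 5733 in input, the epidermis list to 1103 and 1611 RPKM in TRAP versus 4159 and 2316 in input, and the germline list to 1557 and 965 RPKM in TRAP versus 3131 and 520 in input. No tested gene of these 5 lists was at 0 in a TRAP library, so these transcripts were measured in TRAP, and their part in the results was not tested.

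Glial genes had a median above that of all genes. Of 6 tested 1 was called higher, against 15.7% of all genes, and the list median was 2.71. The gene called was the homeobox gene mls-2, with 7.92 and 8.32 RPKM in TRAP versus 0 and 0.0739 in input. The glial transcription factors hlh-17, vab-3 and pros-1, named after their values were seen, had changes of 3.09, 2.84 and 2.58 and were not called, while the secreted glial gene fig-1 had 12.8 and 13.8 RPKM in TRAP versus 37.7 and 14.04 in input. Some neurons also express mls-2 and vab-3. The rescaled fit called 4 of the list higher and 1 lower, against 24.4% and 15.2% of all genes. Without the replicate block it called 2 and 0. The gene mls-2 was not called without input replicate 2. The list summed to 80.6 and 63.2 RPKM in TRAP versus 76.1 and 15.7 in input.

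Cuticle collagens had a median change of -1.07 over 94 genes, with 1 called lower, col-138, at 212 and 429 RPKM in TRAP versus 1913 and 627 in input, which was called in no fit that left out a library. After rescaling 61 were called lower with the replicate block, against 15.2% of all genes, and 4 without it. The genes for the major sperm protein, which moves and signals from sperm, were called lower in 23 of 32 cases, against 0.692% of all genes. Their median change was -2.63. The gene msp-36 had 233 and 224 RPKM in TRAP versus 1372 and 3060 in input (-3.16 ± 0.65), with groups far apart. One member went the other way: msp-52 had 83.3 and 67.6 RPKM in TRAP versus 1.92 and 1.91 in input (4.71 ± 1.29), which was not called without either TRAP library. Members of this family are near-identical in sequence, so reads may be shared between copies. The counts of lower msp genes were 3, 0, 30 and 0 after removal of TRAP replicate 1, TRAP replicate 2, input replicate 1 and input replicate 2.

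Cytosolic ribosomal protein genes were called lower in 30 of 79 cases, against 0.692% of all genes. Their median change was -1.03, and -2.24 after rescaling. The P1 stalk gene rla-1 had 2950 and 3104 RPKM in TRAP versus 6620 and 23429 in input (-2.04 ± 0.39), and rps-13 had 2755 and 3681 RPKM in TRAP versus 4738 and 28246 in input. Input replicate 2 was far above the rest in both. The calls changed with the method: rescaled, 1 member was called lower, edgeR on recovered reads also called 1, where it called 9.65% of all genes lower, and DESeq2 on the same reads called 63. Without either TRAP library or without input replicate 2 none was, and without input replicate 1 the count was 23. One gene, rpl-1, rose (1.92 ± 0.35): it had 15411 and 23060 RPKM in TRAP versus 4219 and 5848 in input, the highest TRAP level of any called gene, and neither the rescaled fit nor any fit that left out a library called it. Genes of mitochondrial ribosomal proteins, the proteasome, the respiratory chain and the spliceosome, 62, 30, 29 and 33 in number, had no member called, with medians of 0.14, 0.39, 0.11 and 0.70 that turn to -1.005, -0.82, -1.09 and -0.49 after rescaling. The rescaled fit called 11, 0, 2 and 2 of them lower, against 15.2% of all genes, and none of them without the replicate block.

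Translation factors and histones each held genes that moved apart. The elongation factor gene eef-1A.2 had 2659 and 4763 RPKM in TRAP versus 769 and 850 in input (2.14 ± 0.53), while eef-1B.1 had 772 and 745 RPKM in TRAP versus 3167 and 11270 in input (-2.98 ± 0.50). Neither was called after rescaling or with edgeR, eef-1A.2 in no fit that left out a library, and eef-1B.1 only without input replicate 1. Of 32 histone genes 5 were called higher, his-35, his-37, his-41, his-71 and his-72, and 1 lower, his-64, with a list median of -1.09. Over all genes 15.7% were called higher and 0.692% lower, so the count of higher histones was near the general share. The H3.3 variant gene his-72 had 2778 and 2922 RPKM in TRAP versus 321 and 247 in input (3.34 ± 0.61), and his-64 had 0.797 and 0.572 RPKM in TRAP versus 51.5 and 8.58 in input. The variants his-71 and his-72 are replication-independent. The rescaled fit called 1 histone gene higher and 24 lower (8 without the replicate block), against 24.4% and 15.2% of all genes, and did not call his-72. The count of higher histones was 2 without TRAP replicate 1, 0 without TRAP replicate 2, 6 without input replicate 1 and 2 without input replicate 2, and his-64 was not called without either TRAP library.

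The largest decreases were led by non-coding RNAs. R144.15, ZC155.8 and B0285.12, annotated by RefSeq as non-coding RNA, had changes of -6.31 ± 1.18, -6.09 ± 1.10 and -5.68 ± 1.22. R144.15 had 3.62 and 1.08 RPKM in TRAP versus 494 and 121.7 in input, and ZC155.8 had 5.32 and 3.74 RPKM in TRAP versus 647 and 213 in input. The RNase P RNA gene rpr-1, whose product cuts tRNA precursors, had 2.94 and 1.42 RPKM in TRAP versus 194 and 42.3 in input (-4.89 ± 1.27), and the RNase MRP RNA gene mrpr-1 had 1.11 and 0.918 RPKM in TRAP versus 98.1 and 15.3 in input. RNase P and MRP RNAs act in ribonucleoproteins and are not translated. All 5 of these RNAs had groups far apart; R144.15, ZC155.8 and B0285.12 were called under every alternative run, and rpr-1 and mrpr-1 under all but the fits without either TRAP library. The gene F23A7.8 had 58.1 and 46.8 RPKM in TRAP versus 393 and 4406 in input, and was not called without input replicate 2. By RefSeq biotype, 1983 of 12665 protein-coding genes were called higher and 69 lower, against 14 and 10 of 98 genes typed only as ncRNA, 6 and 5 of 42 snoRNA genes, 0 and 2 of 2 snRNA genes, and 21 and 0 of 31 piRNA genes. Over all genes 15.7% were called higher and 0.692% lower. Small RNA genes can lie within other genes, whose reads cannot be told apart here.

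A test of the difference asked which changes were larger than those in the muscle and intestine purifications, each with 2 TRAP and 2 input libraries of its own strain. The mean of their changes was taken from the neuronal change in limma over 12 libraries, and of 9953 genes 1858 had a higher neuronal change (18.7%) and 87 a lower one (0.874%). After rescaling the counts were 804 (8.08%) and 728 (7.31%). As deposited, limma pooled the spread completely in this fit. After rescaling, or without the replicate block, each gene's own spread entered in part. A change of count between these settings therefore cannot be credited to the scaling or the block alone. Of the 2103 genes called higher in neurons, 759 were in this fit, and 748 of them were called higher by it. The neuronal change is itself a term of that difference, so the calls of these genes are not independent. The other genes called higher in neurons were not in this fit. The largest differences were those of ric-4 (8.06 ± 0.87), F28D1.6 (7.78 ± 1.03) and C33A12.4 (7.72 ± 0.92). The gene F28D1.6 had 796 and 192 RPKM in TRAP versus 11.5 and 0.582 in input, and its changes were -0.78 and -1.05 in muscle and -0.83 and -2.62 in intestine. The Ras-like GTPase gene drn-1 differed by 7.29 ± 1.03, at 335 and 171 RPKM in TRAP versus 3.21 and 0.416 in input. All 30 flp genes were called higher by the difference, and 29 after rescaling.

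The lower differences were led by muscle and ribosomal genes. The neuronal change of pat-10 minus that in muscle and intestine was -2.57. It was not called after rescaling, without either TRAP library or without input replicate 2. By the difference 9 of 24 muscle genes were called lower, against 0.874% of all genes in this fit. The muscle list medians were -0.16 in neurons, 3.17 in muscle and -1.39 in intestine. That count of 9 was 13 after rescaling, 1 without the replicate block, and 0, 1, 3 and 1 after removal of TRAP replicate 1, TRAP replicate 2, input replicate 1 and input replicate 2. Ribosomal protein genes had medians of -1.03 in neurons, -0.32 in muscle and 0.79 in intestine. The median difference was -1.24 as deposited and -3.12 after rescaling. Each gene's own spread enters in part after rescaling or without the replicate block, so their counts do not turn on the scaling or the block alone. By the difference 39 of 79 were called lower as deposited, 0 after rescaling, 0 without the replicate block, 41 without input replicate 1 and 0 without each of the other 3 neuronal libraries. The major sperm proteins had medians of -2.63 in neurons, -3.15 in muscle and -0.78 in intestine, and 0 of 32 were called lower by the difference. The RNAs with the largest decreases were low in every purification: R144.15 had changes of -6.43 and -5.67 in muscle and -3.78 and -4.87 in intestine, and its difference of -1.13 ± 0.99 was not called. Of the 93 genes lower in neurons 84 were in this fit, 35 were also lower by the difference, and 45 had changes under 0 in all 4 muscle and intestine pairs, as had 3320 of 9941 genes in all.

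**Figure D4:**
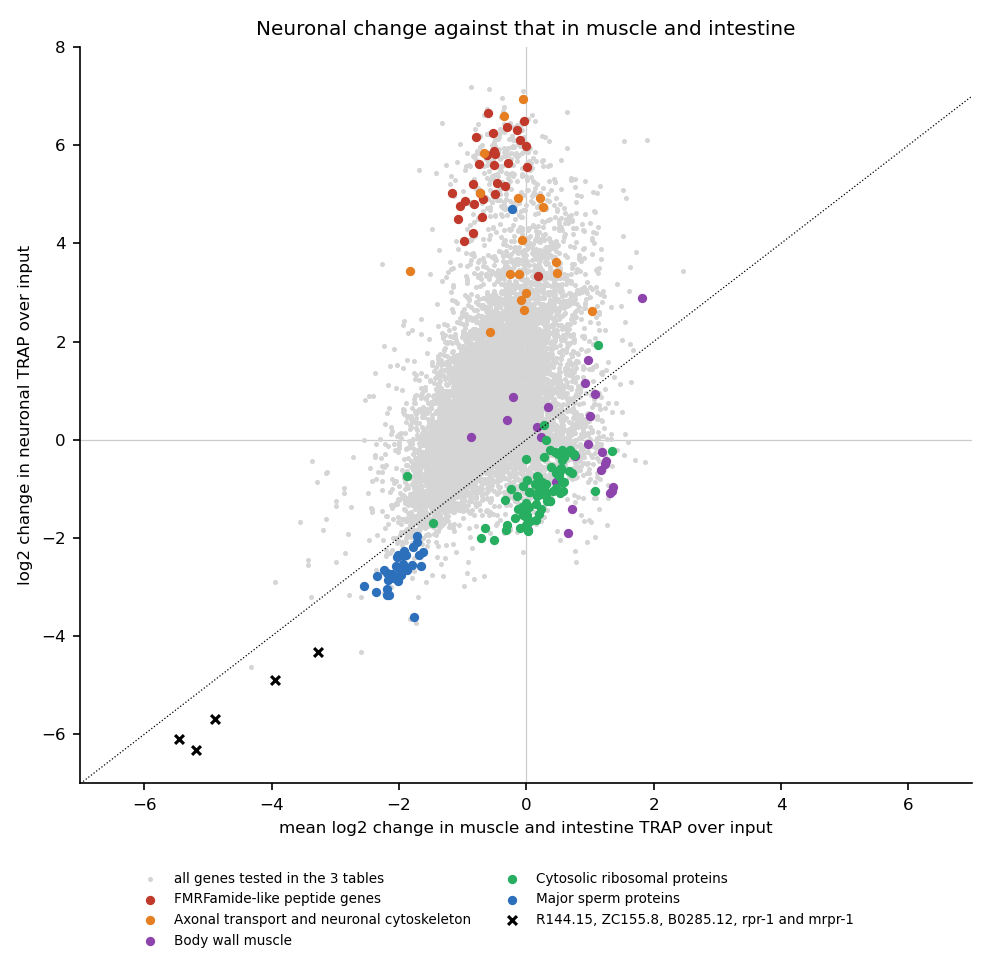
Neuronal log2 change (vertical) against the mean log2 change in muscle and intestine (horizontal), each point a gene tested in all 3 tables, with 5 lists and 5 non-coding RNAs marked and the dotted line where both are equal. Peptide genes stand near 0 on the horizontal axis and high above the line, muscle genes lie mostly to the right and below it, and the 5 RNAs lie near the line at its low end.

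The TRAP libraries differed from each other by gene group, a pattern noticed in these values and given without a test. Over all genes the median log2 ratio of TRAP replicate 1 over TRAP replicate 2 was -0.05, and 2845 of 13435 genes (21.2%) were over 2-fold higher in replicate 1. Several lists whose products are mostly secreted or span membranes had a higher median: 1.85 for flp genes (29 of 30 over 2-fold), 1.82 for nlp genes (30 of 40), 1.66 for peptide receptors (70 of 81), 1.93 for acetylcholine receptor subunits (21 of 22), 1.74 for guidance and adhesion genes (29 of 39) 1.56 for innexins (15 of 18) and 1.12 for potassium channels (34 of 55). Other such lists were lower, at 1.02 for tested chemoreceptors (36 of 71), 0.90 for guanylate cyclases (8 of 17), 0.54 for calcium and sodium leak channels (3 of 10) and -0.10 for the synaptic vesicle membrane and recycling list (1 of 12), which also holds cytosolic products. In lists of mostly cytosolic or nuclear products it was -0.34 for ciliary genes (1 of 43), -0.40 for axonal genes (0 of 20), 0.01 for transcription factors (1 of 41), -0.22 for G proteins and their regulators (0 of 36) and -1.01 for the proteasome (0 of 30). Collagens, which are secreted, had a median of 0.70 with a wide spread, and 44 of 94 were over 2-fold.

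Genes of 1 cell type could also differ in this ratio, and those given here were chosen for it after their values were seen. In acetylcholine neurons TRAP held 60.8 and 56.5 RPKM of the cytosolic enzyme cha-1, but 155 and 15.2 RPKM of the vesicular transporter unc-17 and 125 and 9.99 RPKM of the choline transporter cho-1. In dopamine neurons it held 30.8 and 33.8 RPKM of the enzyme cat-2, but 50.8 and 4.01 RPKM of the transporter dat-1. The vesicle membrane protein gene sng-1, synaptogyrin, had 219 and 18.1 RPKM in TRAP, while ric-4 had 1638.5 and 1468.5 RPKM. Other membrane proteins showed no such gap between replicates. The synaptobrevin gene snb-1 had 1597.6 and 1515.3 RPKM in TRAP, the syntaxin gene unc-64 had 33.5 and 44.9, and the dopamine neuron channel gene trp-4 had 1.99 and 2.05. Inputs differed as well, since the median log2 ratio of input replicate 1 over input replicate 2 was 1.45 over all genes, 1.92 for flp genes, 0.62 for peptide receptors, 0.25 for ciliary genes and -0.99 for ribosomal protein genes. What moves with these ratios was not tested.

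**Figure D5:**
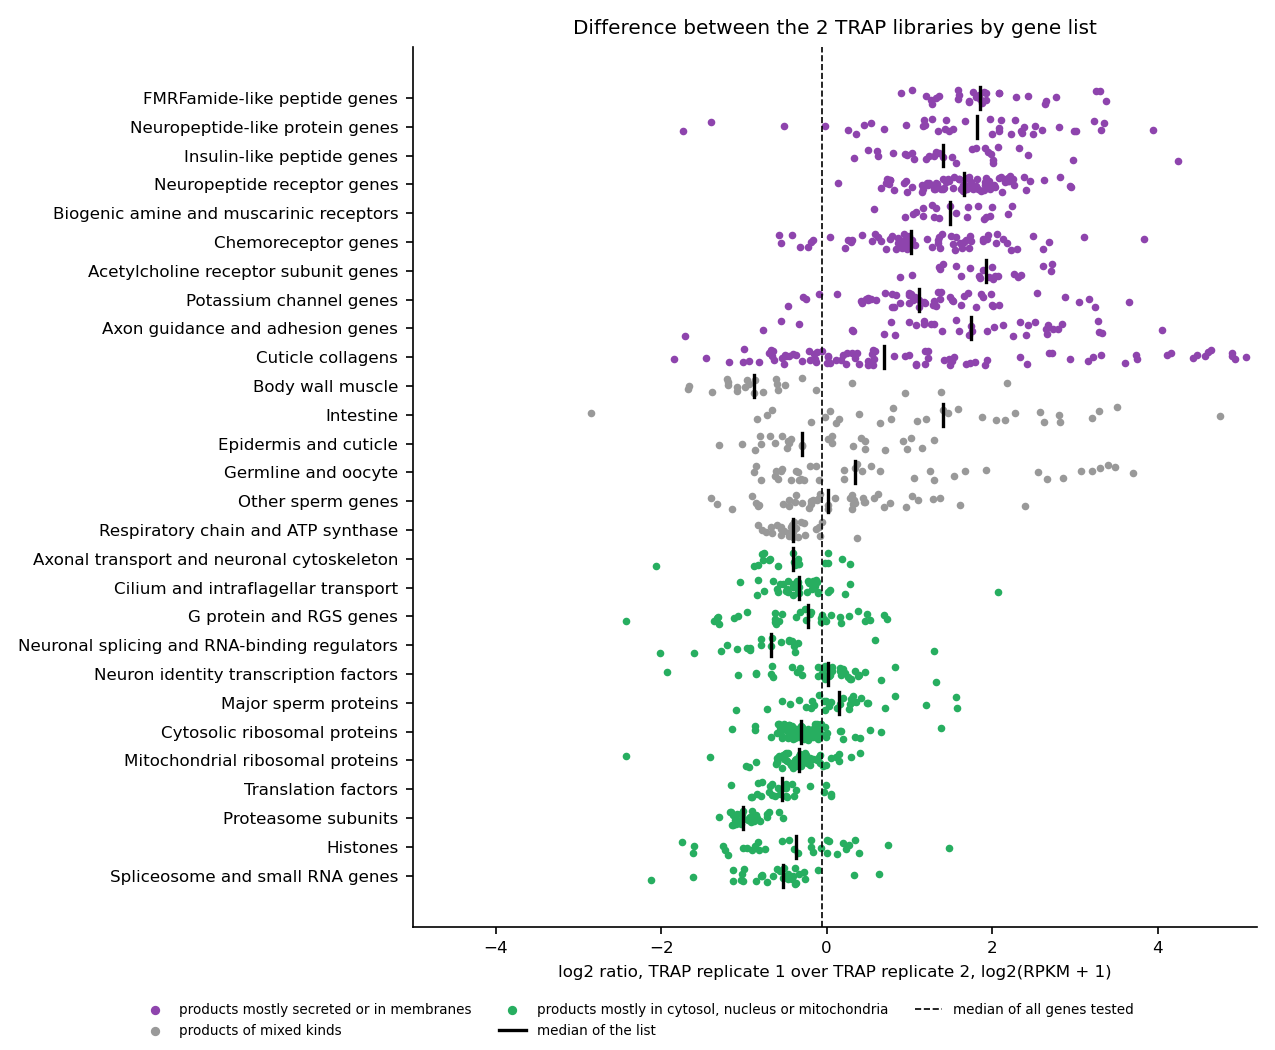
Log2 ratio of TRAP replicate 1 over TRAP replicate 2 for the members of the 28 lists with at least 20 tested genes, coloured by where the products mostly lie, with the median of each list (bar) and of all genes (dashed line at -0.05). Peptide, receptor, channel and guidance lists lie right of 0, while ciliary, transcription factor, proteasome and ribosomal lists lie near or left of it.

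The authors' deposited table of neuron-enriched genes, whose smallest average ratio is 5.10, gave a further description of the same libraries. It lists 2370 genes, of which 2291 were tested here and 1894 called higher, which is 79.9% of the authors' deposited table and 90.1% of the genes called higher by limma. None of its genes was called lower. The largest ratio in the authors' deposited table was 605, for F45E4.3, which RefSeq names cla-1, an active zone protein gene with 21.1 and 31.4 RPKM in TRAP versus 0.273 and 0 in input.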

How the data were processed

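The submitters' processing notes name STAR and HTSeq; versions and the genome build are not given in the sources used here. The authors deposited, per the file headers, RPKM values of the neuronal libraries for 2 biological replicates, TRAP counts, an input count column and a TRAP over input ratio. From the values, the deposited TRAP counts are reads with 1 added, and the deposited input column is a signal, the reads with 1 added times 1 factor per library: 100% of its low values were whole reads within a tolerance of 0.1. These recovered counts served only for depth and as an alternative.

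The main test was limma 3.58.1 (R 4.3.3) with a trend on log2(RPKM + 1), replicate as a block, a mean RPKM of at least 1 and Benjamini-Hochberg adjustment. Deviations of TRAP and input from their group means correlated at 0.4513 within replicates, and the file header sets each TRAP beside its own input. Alternatives were edgeR 4.0.16 and DESeq2 1.42.0 on recovered counts, rescaling, other pseudocounts and filters, no block, and leaving out each library. RefSeq names matched 98.0% of symbols by name.

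The members and gene lists were chosen with earlier results of these data known, and some genes are in more than 1 list. Named genes are the markers, the largest called increases and decreases with an RPKM of at least 10, the highest called levels, up to 4 called members of each list with uncalled or opposite members where these are few, the first marker of each neuron class, the largest differences from muscle and intestine, rpl-1, and the genes with the largest gaps between replicates. Genes outside it, named after their values were seen, are F45E4.3, fig-1, his-37, his-71, hlh-17, ins-7, ins-37, inx-19, mls-2, nlp-2, nlp-16, nlp-24, nlp-29, nlp-31, nlp-40, pros-1, rpl-24.2, snb-1, trp-4 and vab-3.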

Additional observations from a re-analysis of the deposited data

Results flagged for a closer look

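Neuronal changes that differed from the mean of the muscle and intestine changes by limma's test of the difference were, on the log2(RPKM + 1) scale, 8.06 for ric-4, 7.78 for F28D1.6, 7.72 for C33A12.4, 7.35 for C07A12.2, 7.32 for H05L03.3 and 7.29 for drn-1. Among genes also called against input, with groups that do not overlap, the lower ones were -2.57 for pat-10, -2.01 for spp-17, -1.998 for eef-1B.1, -1.89 for T27E9.2, -1.89 for rps-13 and -1.87 for F57B10.14, which RefSeq names ucr-11. Among chemoreceptor genes listed in replicate 1 alone, which enter no test above, 260 of 268 had a TRAP value above the input value, against 957 of all 2461 genes listed in that replicate alone, and for the 198 with no input read that direction is set by the listing rule. Groups of 2 libraries are too small for a test of single outlying samples.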

How the results depend on the processing

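Of 196 named genes called in the comparison of TRAP with input, 117 were called in every alternative that tested them, of the 9 that keep all libraries. Genes with a mean RPKM under 5 were absent from 1 of these alternatives. Far fewer were called in all 4 fits that leave 1 library out. Genes higher in TRAP, 2103 in the fit as reported, numbered 3294 with edgeR, 3279 after rescaling, 1372 after rescaling with no replicate block and 1070 with a pseudocount of 5, and 414 to 3849 when 1 library was left out (1141 without TRAP replicate 1, 1360 without TRAP replicate 2). Genes lower in TRAP, 93 as reported, numbered 1699 with DESeq2, 1297 with edgeR, 2048 after rescaling and 78 after rescaling with no replicate block, and 8 to 132 when 1 library was left out (11 without TRAP replicate 1, 16 without input replicate 2). Shares of called genes that were higher were 71.7% with edgeR, 63.3% with DESeq2, 61.6% after rescaling and 94.6% after rescaling with no replicate block, against 95.8% as reported. Genes with a higher neuronal than muscle and intestine change, 1858 as reported, numbered 804 after rescaling, 774 with no replicate block and 422 to 3178 without 1 library (515 without TRAP replicate 2, 493 without input replicate 2), and those with a lower one, 87 as reported, numbered 728, 6 and 0 to 68 (10 without input replicate 2). In that comparison with muscle and intestine, each gene's own spread entered in part after rescaling or without the replicate block. Without the replicate block the comparison of TRAP with input gave 2257 higher and 79 lower. The difference of eef-1A.2 turned from 1.55 to -0.32 after rescaling, those of his-37 and his-71 turned to -0.033 and -0.021 under it, and that of unc-22 from -1.87 to 0.63 without input replicate 1; the cause was not tested. Input replicate 1, with 4.46e+06 reads and a median of 44 reads per listed gene, limits the precision of input values under a few RPKM.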
